A study of Homo sapiens with 4 samples.

Results

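miR-126, miR-130a, miR-210, miR-296 and miR-378a are microRNAs known from work on blood vessel growth. They were followed here in PC-3, an established human prostate cancer cell line. All catalogue entries named for these 5 microRNAs were taken by name. This gave 5 entries of the 1096 in the table, which were miR-378a-3p, miR-210-3p, miR-130a-3p, miR-126-3p and miR-296-5p, 1 arm of each hairpin. The other arms were not analysed here. The study set PC-3 cells given apelin at 10 µg/mL for 24 h, with 2 small RNA libraries, against untreated PC-3 cells, also with 2 libraries, all grown in DMEM with fetal bovine serum. Apelin, a secreted peptide, acts through the receptor APJ and is itself linked to vessel growth. Nothing in the labels says that the libraries of 1 group are separate cultures, so the p-values reflect the spread among these 4 libraries alone, and that spread may be technical.

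A microRNA guides an Argonaute protein to messenger RNAs, mostly by pairing of its seed, bases 2 to 8 from its 5′ end, and lowers their translation or stability. miR-126 is the endothelial microRNA. It is processed from an intron of EGFL7, a gene of endothelial cells, and strengthens VEGF signalling by repressing SPRED1 and PIK3R2. miR-210 is the microRNA most regularly induced by hypoxia through HIF-1, and it represses EFNA3 in endothelial cells and ISCU in mitochondria. miR-130a represses the homeobox genes MEOX2 (GAX) and HOXA5, which restrain endothelial sprouting. miR-296 represses HGS, which sends growth factor receptors to degradation. miR-378a represses SUFU and is encoded in the metabolic coactivator gene PPARGC1B.

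The set was named for function, and the mature sequences are shown to compare seeds. RefSeq (GRCh38.p14) gave a mature sequence for 4 of the 5 entries, and the seed is in capitals.
miR-378a-3p: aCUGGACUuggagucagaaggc
miR-210-3p: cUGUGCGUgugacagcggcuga
miR-126-3p: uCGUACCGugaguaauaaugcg
miR-296-5p: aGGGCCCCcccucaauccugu
No seed is shared among these 4. Of the other mature microRNAs in RefSeq, 0 had the seed of miR-210-3p, of miR-126-3p or of miR-296-5p. The seed of miR-378a-3p was found in 6 others, namely miR-378b, miR-378c, miR-378f, miR-378h, miR-378i and miR-422a. For miR-378e no sequence was available from that source, so its seed was not compared and the 6 need not be complete. The share of G and C was 66.7% in miR-296-5p, 63.6% in miR-210-3p, 54.5% in miR-378a-3p and 45.5% in miR-126-3p.

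The 5 hairpins lie apart in the genome (GRCh38, GENCODE release 29). MIR378A is on chromosome 5 from 149732825 to 149732890, plus strand, in an intron of PPARGC1B. MIR210 is on chromosome 11 from 568089 to 568198, minus strand, in an intron of its host lincRNA MIR210HG. MIR130A is on the same chromosome from 57641198 to 57641286, plus strand, in an intron of the noncoding gene AP000662.1. MIR126 is on chromosome 9 from 136670602 to 136670686, plus strand, in an intron of EGFL7. MIR296 is on chromosome 20 from 58817615 to 58817694, minus strand, in an exon of the lincRNA AL132655.2. Within 10000 bases of these hairpins GENCODE places 1 other microRNA hairpin, MIR298 beside MIR296. Host transcripts were not measured in these small RNA libraries.

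The libraries held 5322429 counts in apelin 1, 5701358 in apelin 2, 6014838 in control 1 and 5662879 in control 2. Levels are given in TPM, which in this table are counts per 1000000 of the library total with no division by length. The upper limit for an entry at 0 (3 counts) is 0.564 TPM in apelin 1, 0.526 TPM in apelin 2, 0.499 TPM in control 1 and 0.530 TPM in control 2. Intervals on single counts are exact Poisson intervals at 95%. Reads were amplified by PCR without molecular identifiers, so floors and intervals cover counting error only.

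All 5 entries were above 0 in all 4 libraries, at levels from 2.83 to 3962 TPM. miR-378a-3p stood highest, with a mean of 3490 TPM over the libraries, and ranked between 42 and 48 of the 516 catalogue miRNAs in each library. miR-210-3p had a mean of 299.5 TPM and ranks of 91 to 109. This is near the median of the 213 tested catalogue miRNAs (288 TPM). miR-130a-3p had a mean of 91.1 TPM and ranks of 141 to 154. miR-126-3p, the endothelial microRNA, had a mean of 8.55 TPM and ranks of 199 to 226. miR-296-5p was the lowest with a mean of 3.54 TPM and ranks of 239 to 277, close to the median of all 516 catalogue miRNAs (3.50 TPM).

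The order of the 5 was the same in every library, and the ranges of neighbours in that order did not overlap. Ratios are of mean TPM with no division by length. 4 of the entries are listed at 22 nt and miR-296-5p at 21 nt, so such a division would change only the last ratio. miR-378a-3p stood 11.7-fold above miR-210-3p, which stood 3.29-fold above miR-130a-3p. miR-130a-3p in turn stood 10.7-fold above miR-126-3p. miR-126-3p stood 2.42-fold above miR-296-5p (2.31-fold per nt), the smallest gap. Its lowest value was 6.32 TPM, against a highest of 4.51 TPM for miR-296-5p. Counting intervals of miR-126-3p and miR-296-5p overlapped in apelin 1 (4.89 to 9.58 and 2.89 to 6.71 TPM). They also overlapped in control 1 (4.47 to 8.67 and 2.29 to 5.54 TPM). Adaptor ligation is known to favour some small RNA ends over others, so a ratio between miRNAs need not equal the ratio of molecules. miR-378a-3p held 0.348% of all counts, and miR-210-3p 0.0297%.

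**Figure D1:**
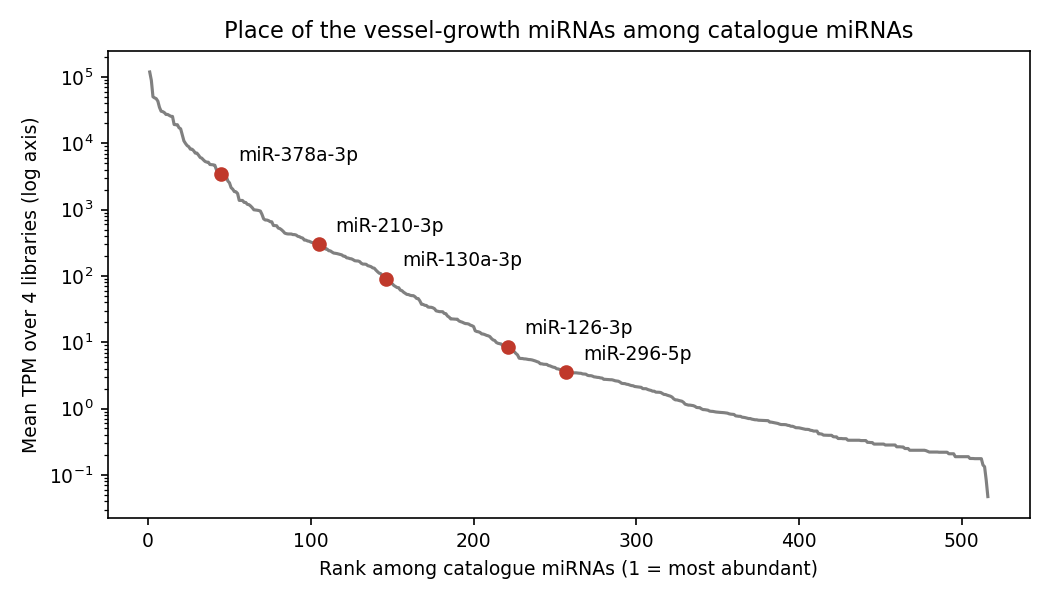
Mean TPM over the 4 libraries (log axis) against rank for the 516 catalogue miRNAs (grey line), with the 5 vessel-growth miRNAs as red points. miR-378a-3p lies at rank 45, miR-210-3p at 105, miR-130a-3p at 146, miR-126-3p at 221 and miR-296-5p at 257.

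The level of miR-126-3p was read beside markers of other cell types. The 4 epithelial markers with an entry summed to 7524 to 7779 TPM in the apelin libraries and to 7704 to 7948 TPM in controls. Most of that was miR-200b-3p (mean 6635 TPM), while miR-200c-3p, of the same family, had a mean of 28.8 TPM. The 3 smooth muscle and stroma markers with an entry (miR-143-3p, miR-199a-3p and miR-214-3p) summed to 5.79 to 6.01 TPM with apelin and to 4.41 to 6.48 TPM in controls. Of 4 leukocyte markers 2 had an entry, miR-223-3p and miR-150-5p. They summed to 0.877 to 2.07 TPM with apelin and to 0.706 to 4.66 TPM in controls. Of 3 skeletal muscle markers 2 had an entry, miR-1-3p and miR-133a-3p. Their sum was 1.88 to 2.63 TPM with apelin and 0.998 to 2.12 TPM in controls. Of 3 neuron markers, miR-9-5p had 300.1 to 399 TPM with apelin and 298 to 299.0 TPM in controls, and miR-124-3p had no entry. The third, miR-128-3p, had entries only under names of hairpin copies. These were miR-128-1-3p (mean 1374 TPM) and miR-128-2-3p (mean 1202 TPM). The liver miRNA miR-122-5p had a mean of 3.30 TPM. Of 3 red cell markers, miR-451a and miR-144-3p had no entry. The remaining one, miR-486-5p, had 33.8 and 28.2 TPM with apelin and 35.7 and 37.1 TPM in controls. miR-126-3p at 8.55 TPM thus lay between the sum of the stromal markers with an entry and miR-486-5p. The second endothelial marker with an entry, miR-139-5p, which other tissues also express, had 44.0 and 31.6 TPM with apelin and 38.4 and 34.6 TPM in controls. In bulk libraries few cells with much of a miRNA and many cells with little of it cannot be told apart.

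**Figure D2:**
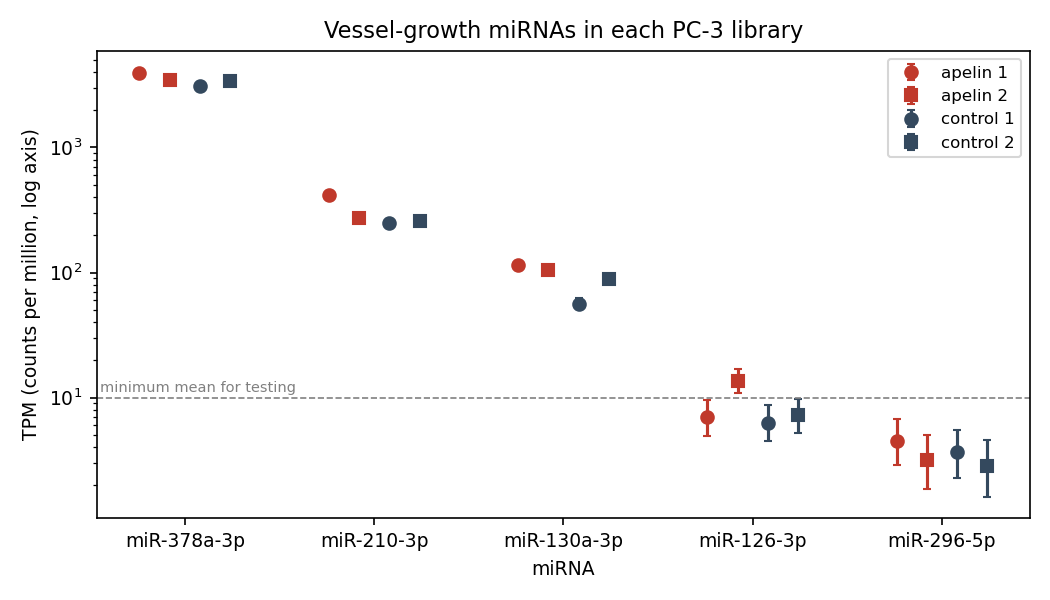
TPM (log axis) of the 5 vessel-growth miRNAs in the 2 apelin libraries (red) and the 2 control libraries (dark), with circles for replicate 1 and squares for replicate 2. Bars are 95% Poisson intervals and are hidden by the symbols at high counts, and the dashed line marks 10 TPM, the minimum mean for testing; miR-126-3p in apelin 2 (13.7 TPM) lies apart from its other 3 libraries.

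The question of the study was which miRNAs differ under apelin. None of the vessel-growth miRNAs passed the test. miR-378a-3p, miR-210-3p and miR-130a-3p reached the mean of 10 TPM needed for testing, and miR-126-3p and miR-296-5p did not. edgeR's quasi-likelihood test, two-sided with Benjamini-Hochberg adjustment over 263 entries and a threshold of 0.05, called 0 of the 3, against 0 of all 263 (0%). At an unadjusted p under 0.05 it had 0 of the 3 and 15 of the 263 (5.70%). DESeq2 also called 0 of the 3, against 53 of 263 (20.2%), and 30 of those 53 were at 0 in some library. Limma on log2(TPM + 1) called 0 of the 3, against 4 of 263 (1.52%), all 4 at 0 in some library. For all 3, the lower apelin library was above the higher control. So it was for 55 of the 263 tested entries (20.9%) and for 47 of the 207 tested catalogue miRNAs above 0 in every library (22.7%). With TMM-scaled counts it was 48 of the 207 (23.2%), again with all 3. In the other direction, both apelin libraries lay below the controls for 46 of the 263 (17.5%) and 36 of the 207 (17.4%). Some miRNAs are also listed under names of hairpin copies, such as miR-24-2-3p beside miR-24-3p with equal values. All these shares count such miRNAs more than once. With 2 libraries against 2, the smallest two-sided p of an exact permutation test is 0.33.

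The hypoxia microRNA miR-210-3p had 414 TPM in apelin 1 and 274 TPM in apelin 2, against 249.9 TPM in control 1 and 259.8 TPM in control 2. Apelin 1 stood well above the others, and apelin 2 only just above the controls. These levels rest on 2205, 1563, 1503 and 1471 counts in the same order. The interval of apelin 2 (260.7 to 288.1 TPM) overlapped those of control 1 (237.4 to 262.8 TPM) and control 2 (246.7 to 273.4 TPM), and that of apelin 1 (397 to 432 TPM) overlapped neither control. The group means were 344 ± 99 TPM with apelin and 254.8 ± 7.0 TPM in controls (SD, n = 2 each). The log2 fold change was 0.45 (SE 0.24, interval -0.32 to 1.21, edgeR adjusted p = 0.627). It was 0.15 without apelin 1 and 0.62 without apelin 2. On TMM-scaled counts the apelin libraries of miR-210-3p differed by 0.51 on the log2 scale and the controls by 0.023. The median over the 207 catalogue miRNAs was 0.29 between the apelin libraries and 0.15 between the controls.

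miR-130a-3p had the largest log2 fold change of the 3 tested, and its spread lay in the controls. It had 114 TPM in apelin 1 and 104.0 TPM in apelin 2, against 56.5 TPM in control 1 and 89.5 TPM in control 2. The apelin libraries were close to each other, while control 1 stood well below control 2. Behind them are 608 and 593 counts with apelin and 340 and 507 counts in controls. The intervals of the controls (50.7 to 62.9 TPM and 81.9 to 97.7 TPM) did not overlap, so their difference is wider than counting error. The interval of apelin 2 (95.8 to 112.7 TPM) overlapped that of control 2. Means were 109.1 ± 7.2 TPM with apelin and 73.0 ± 23.3 TPM in controls (SD, n = 2 each), a log2 fold change of 0.61 (SE 0.28, interval -0.30 to 1.51, edgeR adjusted p = 0.627). Without control 1 it was 0.31 and without control 2 it was 0.92. The controls of miR-130a-3p differed by 0.58 on the log2 scale, more than those of 91.3% of the 207 catalogue miRNAs.

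miR-378a-3p, the most abundant of the set, had the smallest fold change of the 3 tested and the smallest SE. It had 3962 TPM in apelin 1 and 3486 TPM in apelin 2, against 3114 TPM in control 1 and 3399 TPM in control 2. Apelin 1 was the highest and control 1 the lowest, and apelin 2 and control 2 were close. Means were 3724 ± 337 TPM with apelin and 3257 ± 201 TPM in controls (SD, n = 2 each). The log2 fold change was 0.21 (SE 0.085, interval -0.061 to 0.49, edgeR adjusted p = 0.627), and DESeq2 gave an adjusted p = 0.103. The interval's upper end of 0.49 limits any higher level of miR-378a-3p more tightly than the upper ends of 1.21 for miR-210-3p and 1.51 for miR-130a-3p. With a library left out the value ran from 0.15 to 0.23.

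**Figure D3:**
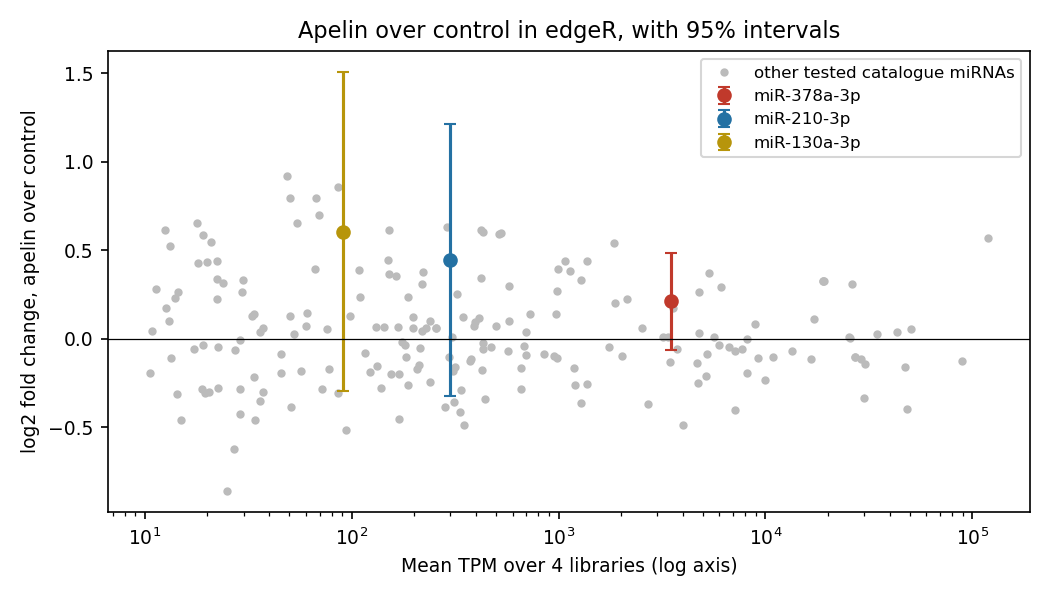
log2 fold change of apelin over control in edgeR (vertical axis) against mean TPM (log axis) for the 207 tested catalogue miRNAs above 0 in every library; miR-378a-3p, miR-210-3p and miR-130a-3p are coloured, with 95% intervals. All 3 values lie above 0 and all 3 intervals hold 0.

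The endothelial microRNA miR-126-3p was counted too rarely to test. It had 37 counts in apelin 1 and 78 in apelin 2, against 38 in control 1 and 41 in control 2, which are 6.95 and 13.7 TPM with apelin and 6.32 and 7.24 TPM in controls. Apelin 2 was the high library, and apelin 1 lay between the controls, so the groups overlapped. The interval for the 78 counts of apelin 2 (10.8 to 17.1 TPM) lay above those of the other libraries, whose intervals ran from 4.47 to 9.82 TPM. The ratio of group means was 0.61 on the log2 scale, and 0.036 without apelin 2. When entries with a mean of 1 TPM or more were tested, edgeR gave miR-126-3p a log2 fold change of 0.65 (SE 0.53, adjusted p = 0.755). In apelin 2 the other endothelial marker, miR-139-5p, was at its lowest, 31.6 TPM. The stroma markers summed to 5.79 TPM there and the leukocyte markers to 0.877 TPM. The source of the higher miR-126-3p count in apelin 2 was not tested.

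miR-296-5p was rarer still. It had 24 counts in apelin 1 and 18 in apelin 2, against 22 in control 1 and 16 in control 2, or 4.51 and 3.16 TPM with apelin and 3.66 and 2.83 TPM in controls. The groups overlapped, and so did the counting intervals of all 4 libraries, which together ran from 1.61 to 6.71 TPM. The ratio of means was 0.24 on the log2 scale and turned to -0.038 without apelin 1. With the minimum at 1 TPM edgeR gave 0.25 (SE 0.58, adjusted p = 0.975).

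**Figure D4:**
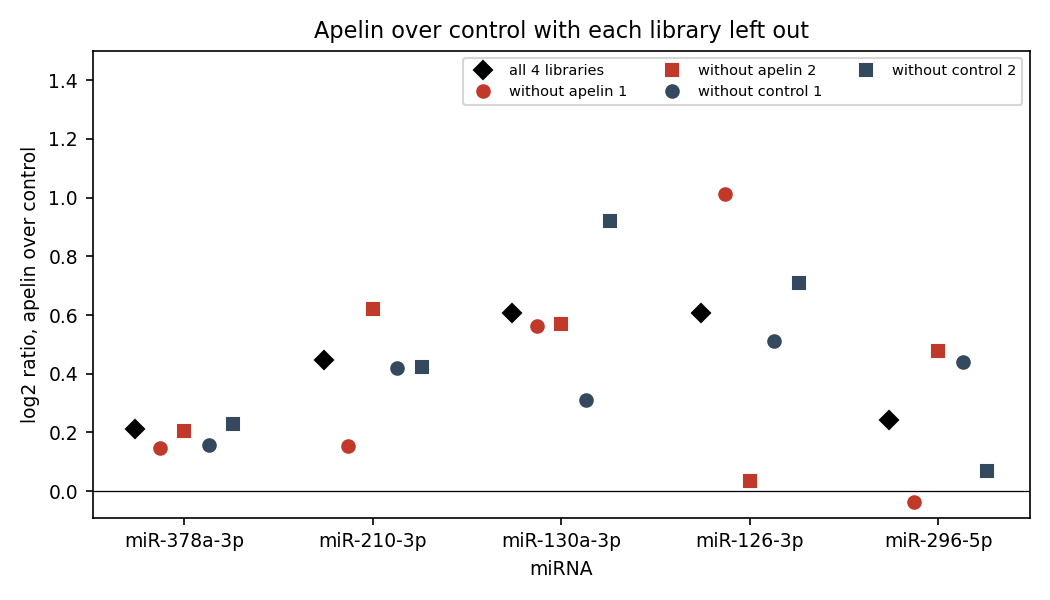
log2 ratio of apelin over control for the 5 miRNAs with all 4 libraries (black diamonds) and with each library left out (red for an apelin library, dark for a control); edgeR fold changes for miR-378a-3p, miR-210-3p and miR-130a-3p, and ratios of mean TPM for miR-126-3p and miR-296-5p. miR-210-3p is lowest without apelin 1 (0.15), miR-126-3p without apelin 2 (0.036) and miR-130a-3p without control 1 (0.31), and 1 value lies below 0, miR-296-5p without apelin 1.

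Relatives by seed give the same seed a further source of reads. miR-130a belongs to a family with miR-130b, miR-301a, miR-301b and miR-454. Of its relatives miR-454-3p was measured.
miR-454-3p: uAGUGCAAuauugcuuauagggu
The capitals again mark the seed. miR-454-3p stood at 385 and 468 TPM with apelin and at 423 and 377 TPM in controls, above miR-130a-3p in every library. Its groups overlapped, and edgeR gave a log2 fold change of 0.12 (SE 0.21, adjusted p = 0.871), with sign changes to -0.14 without apelin 2 and to -0.0085 without control 2. miR-130b-3p, miR-301a-3p and miR-301b-3p were not analysed here. The other arm of these 3 hairpins was listed. From that arm, which has another seed, miR-130b-5p had 440 and 360 TPM with apelin and 469 and 445 TPM in controls (log2 fold change -0.18, SE 0.15, edgeR adjusted p = 0.671). miR-301a-5p had 22.2 and 28.8 TPM with apelin and 15.1 and 23.3 TPM in controls (0.44, SE 0.36, edgeR adjusted p = 0.667). miR-301b-5p was under the minimum for testing. It had 3.76 and 3.16 TPM with apelin and 5.65 and 4.24 TPM in controls, from 20 and 18 counts against 34 and 24. Its counting intervals overlapped between the groups, from 1.87 to 5.80 TPM with apelin and from 2.72 to 7.90 TPM in controls. For miR-130b-5p and miR-301b-5p both apelin libraries lay below both controls, as they did for 17.5% of the 263 tested entries. Of the relatives of miR-378a-3p, miR-378f had 3 and 8 counts with apelin and 0 in both controls, where a count of 0 allows up to 3 counts. miR-378e had 22 and 0 counts with apelin and 5 and 17 in controls. miR-378a-3p held 99.99% and 99.96% of the counts of its own seed with apelin, among the entries with a RefSeq sequence, and 100% in both controls. These shares leave out miR-378e, which had no sequence there, so the 100% in controls does not cover it. miR-378f differs from miR-378a-3p by few bases, and the sources used here do not say how reads that match both were counted.

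Other miRNAs of vessel growth and hypoxia were read from lists. Of 13 tested miRNAs held to promote vessel growth, edgeR called 0 higher and 0 lower; 3 had an unadjusted p under 0.05, beside 5.70% of all 263 entries. DESeq2 called 4 of the 13, with miR-17-5p, miR-19a-3p and miR-20a-5p higher and miR-10a-5p lower. It called 20.2% of all 263 entries, but 30 of those 53 calls were at 0 in some library. In 5 of the 13 both apelin libraries lay above both controls and in 1 below, beside 20.9% above and 17.5% below over the 263. The median log2 fold change of the 13 was 0.033. It was -0.018 over all 263 entries and 0.012 over the 207 catalogue miRNAs above 0 in every library. The most abundant was miR-21-5p, which represses PDCD4, at 0.57 (SE 0.27, edgeR adjusted p = 0.627). miR-23a-3p was at 0.029 and miR-31-5p, which represses the HIF inhibitor FIH, at 0.00089. let-7f-5p was at -0.19, with -0.028 without apelin 1 and -0.46 without apelin 2. Of 12 tested miRNAs held to restrain vessel growth, edgeR and DESeq2 called 0, with 0 at an unadjusted edgeR p under 0.05. In both apelin libraries 2 lay above and 2 below both controls, beside the same 20.9% and 17.5%, and the median was 0.027. These included miR-222-3p (0.058) and miR-221-3p (0.041), a pair that represses the receptor KIT, miR-92a-3p (-0.10), which represses integrin alpha 5 and whose counts are also listed for a hairpin copy, and miR-15b-5p (-0.11), which represses BCL2. Of 17 tested hypoxia-linked miRNAs besides miR-210, edgeR called 0, with 1 at an unadjusted p under 0.05 (5.70% over the 263), and DESeq2 called 1, miR-181b-5p, lower (20.2% over the 263). In both apelin libraries 5 lay above and 2 below both controls, again beside 20.9% and 17.5%, and the median was 0.12. Among the most abundant of these, miR-24-3p was at 0.32 (SE 0.13, edgeR adjusted p = 0.627) and miR-125b-5p at -0.16. The values of miR-23a-3p, miR-31-5p, miR-221-3p and miR-92a-3p changed sign when a library was left out, that of miR-31-5p also under other scalings. With a library left out miR-222-3p ran from 0.019 to 0.055 and miR-15b-5p from -0.22 to -0.067. With no filter edgeR called miR-21-5p, and without apelin 2 it was at 0.15, miR-24-3p at 0.11 and miR-125b-5p at -0.064. The lists share members such as miR-21-5p and miR-23a-3p, so they are not independent of each other.

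The 3 tested members were also compared by their pattern over the 4 libraries, as the root mean square difference of centred log2(TPM + 1) values. With 4 libraries this is a description. miR-210-3p was most like miR-766-3p (0.035), miR-1296-5p (0.090) and miR-146a-5p (0.11), where its median difference from the other 206 catalogue miRNAs was 0.33. miR-130a-3p was most like miR-106a-5p (0.11), miR-590-3p (0.18) and miR-194-5p (0.19), with a median of 0.41. miR-378a-3p was most like miR-576-5p (0.047), miR-769-5p (0.067) and miR-3200-3p (0.070), with a median of 0.22. The members were not each other's nearest patterns. Seen from miR-210-3p, miR-378a-3p came at place 8 of 206 and miR-130a-3p at place 53. Seen from miR-130a-3p, miR-378a-3p came at place 26 and miR-210-3p at place 31. Seen from miR-378a-3p, miR-210-3p came at place 68 and miR-130a-3p at place 150.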

How the data were processed

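Small RNA of PC-3 cells was sequenced in 2 apelin and 2 control libraries. The authors deposited 1 table, which holds a raw count and a TPM value per entry and library. Per the submitters' processing notes, Trimmomatic 0.30 and DESeq2 were used. For the aligner, catalogue and genome build: not given in the sources used here. Of the entries 516 have a catalogue name (prefix hsa-, left out here) and 580 are predicted. Entries named for hairpin copies are among the 516, so ranks and library totals count some miRNAs more than once. The deposited TPM differed from counts per 1000000 by at most 0.005 in 3 libraries and 0.151 in apelin 2. All columns were matched to samples by title.

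Entries with a mean of at least 10 TPM were tested with edgeR 4.0.16 (quasi-likelihood, TMM scaling, R 4.3.3), apelin over control, unpaired. Each SE came from the log2 fold change and its F statistic, and intervals at 95% use it. Alternatives were DESeq2 1.42.0, limma 3.58.1 and other scalings, filters, pseudocounts, a block and left-out libraries. Tests were also run on simulated counts with larger changes than those of the tested members. That run does not show what the tests can find at the sizes seen here. The miRNAs and lists were chosen with earlier results of these data known; each list names its called miRNAs or, with none, up to 4 of its most abundant, and each tested miRNA its 3 likest in pattern. List names were matched exactly, so entries named for hairpin copies were left out. Sequences and loci came from RefSeq and GENCODE, and tables and figures were made with Python 3.11.15. The planned share of each hairpin's reads by arm was not computed, since 1 arm was measured for each.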

Additional observations from a re-analysis of the deposited data

How the results depend on the processing

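Of 54 values of the 5 miRNAs under the alternatives, 53 kept the sign given in the report. Of these 54, 46 came with a test and 0 of the 46 passed the threshold; the other 8 are the left-out values of miR-126-3p and miR-296-5p, ratios of means with no test, and those miRNAs were tested by edgeR only. The exception in sign was miR-296-5p, at -0.038 without apelin 1 and 0.48 at most (without apelin 2). With a library left out, log2 fold changes ran from 0.15 to 0.23 for miR-378a-3p, from 0.15 to 0.62 for miR-210-3p, from 0.31 to 0.92 for miR-130a-3p and from 0.036 to 1.01 for miR-126-3p, and the cause was not tested beyond there being fewer samples. With all libraries kept they ran from 0.19 to 0.22, 0.39 to 0.46, 0.55 to 0.64 and 0.65 to 0.66 in the same order. Adjusted p ran from 0.103 to 0.974 for miR-378a-3p, 0.228 to 0.974 for miR-210-3p and 0.211 to 0.974 for miR-130a-3p.

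The count of called entries, 0 in edgeR, was 53 with DESeq2 and 52 with no filter. Limma on log2(TPM + 1) gave 4, with a pseudocount of 0.1 it gave 5 and with 10 it gave 4. Leaving out a library gave 0 to 19 (11 without control 1, 19 without control 2). Of the 52 called with no filter, 51 were at 0 in some library, as were 30 of the 53 with DESeq2 and all those called by limma or with a control left out. DESeq2 called 4 of the growth-promoting list (miR-17-5p, miR-19a-3p, miR-20a-5p and miR-10a-5p) and 1 of the hypoxia list (miR-181b-5p). With no filter edgeR called 1 in each, miR-21-5p. The medians of the growth-promoting, growth-restraining and hypoxia lists ran from -0.061 to 0.19, from -0.072 to 0.039 and from -0.061 to 0.25. With replicate numbers as a block, edgeR gave 0 calls, and log2 fold changes of 0.21 for miR-378a-3p, 0.42 for miR-210-3p and 0.64 for miR-130a-3p. No label says that a number marks a shared culture or day; deviations of same-numbered libraries correlated at 0.318 over 207 miRNAs. Counts were lowest for miR-126-3p and miR-296-5p, at 16 to 78 a library, which limits their precision.

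Of miR-454-3p and the list miRNAs named for their abundance, 5 turned direction in some setting. With a library left out miR-454-3p ran from -0.14 to 0.27, miR-23a-3p from -0.061 to 0.069 and miR-31-5p from -0.094 to 0.022. In the same settings miR-221-3p ran from -0.082 to 0.089 and miR-92a-3p from -0.31 to 0.013. Fold changes of the other named relatives, and of the list miRNAs called by DESeq2, were not compared across settings. miR-31-5p, near 0 throughout, was also -0.021 with library totals, -0.0049 with DESeq2 size factors and with DESeq2, -0.011 among catalogue miRNAs above 0 in every library and -0.020 with limma at each pseudocount.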
